A study of Mus musculus with 7 samples.

Results

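Trp63, Pax9, Pitx1, Grhl3 and Ovol1 are 5 mouse genes for transcription factors of the foregut and of squamous, many-layered epithelium. Around them lay 103 of the 326695 regions of open chromatin found in 7 libraries of the embryonic gut, 30 at Trp63, 12 at Pax9, 22 at Pitx1, 31 at Grhl3 and 8 at Ovol1. A region is the union of overlapping peaks of the 7 lists on chromosomes 1 to 19 and X. It was given to a gene where that gene had the nearest protein-coding gene body, at most 100 kb away in the RefSeq annotation of GRCm38. The choice of genes used no peak, but it was made with results of these data known.

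The peaks come from ATAC-seq, in which a transposase cuts DNA that is free of nucleosomes, and they mark accessible promoters and enhancers. There was 1 library per group. The stomach and the intestine at embryonic day 13 (E13) came from ShhCre; R26YFP/+ embryos, in which Cre made under the Shh gene switches on a yellow reporter in the gut epithelium. Those organs were digested whole with trypsin, sorted for living yellow cells, and pooled over several embryos. At day 16 (E16) embryos of the same genotype gave the other 4 wild-type libraries. Forestomach was cut off at the squamous-glandular border, and its epithelium was freed with dispase and collagenase and sorted. Hindstomach epithelium was freed with 10 mM EDTA, and that of the proximal small intestine and of the colon with 5 mM. The last library is E16 stomach labelled Sox2 knockout (KO), whose alleles, stomach part and isolation the sources used here do not give. Since no group had a second library, no difference was tested, neighbours in an order of counts cannot be judged against a replicate spread, and the KO genotype cannot be told apart from its isolation. Ages are those of the sample labels; the protocol text dates the wild-type embryos later within the same day and gives no age for the KO.

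The anterior part of the rodent stomach, the forestomach, becomes squamous like the oesophagus, while the hindstomach becomes glandular. p63, the product of Trp63, maintains the basal cells of stratified epithelia. PAX9 is a paired-box factor of the pharynx and oesophagus, and PITX1 a homeodomain factor known from the hindlimb, the pituitary and the mouth. GRHL3, a grainyhead-like factor, is needed for the skin barrier, and OVOL1 is a zinc-finger factor of epidermal differentiation.

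The RefSeq promoter table of GRCm38.p6 matched 2 of the 5 genes, Pax9 and Grhl3, and not Trp63, Pitx1 and Ovol1. Both sequences are shown because a peak overlapped the promoter that this table gives for Pax9 in every library and that of Grhl3 in 4 of the 7. Each has 300 bases, 5′ to 3′ on the gene's own strand, at chr12:56695221-56695520 on the plus strand for Pax9 and chr4:135573583-135573882 on the minus strand for Grhl3. Capitals mark the letters found of the SOX, GRHL, PITX, OVOL, p53-family and KLF/SP motifs.
Pax9 promoter: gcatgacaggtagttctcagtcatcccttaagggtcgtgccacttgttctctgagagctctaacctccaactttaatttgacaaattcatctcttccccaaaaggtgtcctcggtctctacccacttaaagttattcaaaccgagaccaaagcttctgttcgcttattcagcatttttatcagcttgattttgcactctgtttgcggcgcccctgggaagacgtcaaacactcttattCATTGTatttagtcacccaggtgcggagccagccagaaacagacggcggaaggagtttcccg
Grhl3 promoter: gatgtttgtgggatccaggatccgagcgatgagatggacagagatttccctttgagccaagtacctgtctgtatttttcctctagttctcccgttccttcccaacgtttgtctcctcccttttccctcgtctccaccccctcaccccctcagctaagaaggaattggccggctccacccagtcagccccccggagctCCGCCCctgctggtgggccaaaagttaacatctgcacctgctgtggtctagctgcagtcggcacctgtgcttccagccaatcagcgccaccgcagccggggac
On either strand, the SOX letters ACAAAG or ACAATG matched at bases 239 to 244 of the Pax9 promoter, where the printed letters CATTGT are the complement, and nowhere in that of Grhl3. They occur in 28.6% of the 32851 promoters of the same length in the table. The letters AACNGGTT of grainyhead-like factors (in 2.09% of promoters), TAATCC of PITX factors (7.06%), CCGTTA of OVOL factors (2.76%) and the p53-family motif (0.712%) were in neither window. The KLF/SP letters GGGCGG, found in 35.7% of promoters, matched at bases 198 to 203 of the Grhl3 promoter, printed as CCGCCC. A match is a stretch of letters and no measured site.

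At the Pax9 promoter of that table the peak was 317 bp wide in forestomach, 296 in hindstomach, 260 in E13 stomach, 259 in KO stomach, 180 in E13 intestine, 173 in colon and 157 in E16 intestine. The 4 stomach libraries had the wider peaks here, as they had over their whole lists. Median widths of the lists ran from 138 (E13 stomach) to 178 bp (forestomach), against 108 (E13 intestine) to 130 bp (E16 intestine). Whether the Pax9 widths go beyond that was not tested. The stomach peaks reached further upstream into the promoter shown above. They covered 124 bases of it in forestomach, 102 in hindstomach, 88 in KO and 80 in E13 stomach, against 57 in E13 intestine, 50 in colon and 44 in E16 intestine. All 6 bases of the SOX match, at chr12:56695459-56695464, lay inside the peaks of the 4 stomach libraries, the KO included. The E13 intestine peak held 1 or 2 of these bases, depending on whether the deposited starts count from 0 or 1, and those of E16 intestine and colon held none. This promoter lies inside the Pax9 body of the gene table, which begins further upstream, at chr12 position 56691693. By that end of the body, 45 bp below it, lay the region chr12:56691443-56691648, with a peak of 205 bp in KO stomach and none in the other 6 libraries.

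The start of Grhl3 lies in the region chr4:135573439-135573794. There the peak was 326 bp wide in KO stomach, 323 in E13 stomach, 129 in colon and 81 in E13 intestine, and forestomach, hindstomach and E16 intestine had no peak. The wide peaks were those of E13 stomach and KO stomach, which covered 179 and 211 bases of the promoter, against 129 in colon and 81 in E13 intestine. The KLF/SP match lay inside the peaks of E13 stomach, KO and colon and outside that of E13 intestine. An absent peak says only that none was called, and in a bulk library fewer cells with a site open and less opening per cell cannot be told apart.

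The deposited lists held between 81179 peaks (E13 intestine) and 135743 (colon), with median widths from 108 bp (E13 intestine) to 178 bp (forestomach), and read depth is unknown. The smallest width was 62 bp in E13 intestine, 71 in KO, 77 in E13 stomach and 86 in colon. It was 87 bp in E16 intestine, 89 in hindstomach and 108 in forestomach. No peak of a list is narrower than that, so widths near these values cannot be compared between libraries. Regions at the targeted gene check no label here, since the KO alleles are not given and the counts cover every region assigned to Sox2, 39 in all. Of these, 13 had a KO peak, 12 one in hindstomach, 8 in forestomach and 9 in E13 stomach. Each of 8 epithelial genes had a peak in every library, with 40 regions in E13 intestine at the lowest and 72 in KO at the highest. Markers of other cell types were not at 0. The 10 mesenchymal markers had 33 to 58 regions, most in KO stomach, with none at Twist1 in hindstomach and E16 intestine and none at Des in E16 intestine. The 5 endothelial markers had 30 to 67 and the 7 blood markers 18 to 64, both most in colon. The 6 neural markers had 17 to 33, with none at Sox10 in the 4 wild-type E16 libraries. The 7 squamous markers had 7 regions (E13 intestine) to 15 (colon), with 12 in forestomach and none there at Krt4. The 6 glandular stomach markers had 42 regions in hindstomach, 27 in forestomach and 26 in KO, and none at Gkn2 in any library, and the 6 intestinal markers had 45 in E16 intestine, 38 in colon, 37 in KO and 19 in forestomach. The part that other cells have in the counts below was not tested.

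Over the 5 genes, E13 stomach had a peak in 45 of the 103 regions, KO stomach in 44, hindstomach in 33, forestomach in 27, E13 intestine in 26, colon in 23 and E16 intestine in 18. E13 stomach and KO stomach stood at the top, and the E16 intestinal libraries at the bottom. In percent with 95% Wilson intervals, which cover counting error only, E13 stomach held 43.7% (34.5 to 53.3), against 28.2% of all merged regions. KO stomach held 42.7% (33.6 to 52.4) against 31.8%, hindstomach 32.0% (23.8 to 41.6) against 33.3%, and forestomach 26.2% (18.7 to 35.5) against 26.1%. E13 intestine held 25.2% (17.8 to 34.4) against 22.9%, E16 intestine 17.5% (11.3 to 25.9) against 28.9% and colon 22.3% (15.4 to 31.3) against 40.8%. For E13 stomach, KO stomach, E16 intestine and colon the share of all regions lay outside the interval. Pitx1 gave 15 of the 45 E13 stomach regions and 12 of the 44 KO regions. Without Pitx1, an alternative chosen after seeing the data, KO had 32 regions, E13 stomach 30, hindstomach 26, forestomach 23, E13 intestine and colon 21 each and E16 intestine 16. No interval was computed without Pitx1. The forestomach share at these genes was close to its share of all regions.

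**Figure D1:**
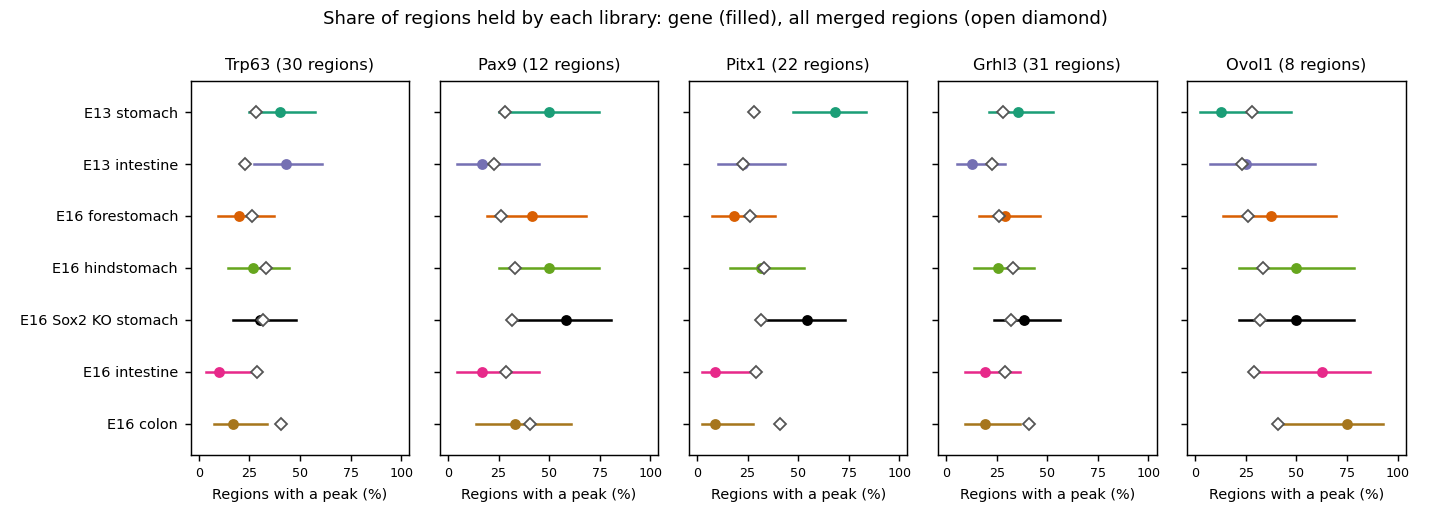
For each gene (a panel each, with its number of regions), the filled point is the percent of its regions that have a peak in the library on the vertical axis, and the bar is its 95% Wilson interval; open diamonds are the percent of all 326695 merged regions. Pitx1 in E13 stomach stands at 68.2% against 28.2%, and Ovol1 runs from 12.5% in E13 stomach to 75.0% in colon.

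The 5 genes differed in their order of libraries, as the plot of shares by library shows. Trp63 had most regions in the E13 libraries, Pax9, Pitx1 and Grhl3 had most in E13 stomach or KO stomach, and Ovol1 had most in colon. Of the 103 regions 55 (53.4%) had a peak in 1 library only, against 55.3% of all regions. The numbers held by 2, 3, 4, 5 and 6 libraries were 19, 12, 7, 4 and 3. All 7 libraries held 3 regions (2.91%; 0.995 to 8.22), against 4.46% of all regions, and these lay at Trp63, Pax9 and Pitx1.

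Trp63 covers 208 kb at chr16:25683763-25892088, and 24 of its 30 regions lay inside that body. E13 intestine had a peak in 13 of the 30, E13 stomach in 12, KO stomach in 9, hindstomach in 8, forestomach in 6, colon in 5 and E16 intestine in 3. The E13 libraries were the highest, and the intestine no lower than the stomach there. In E13 intestine 5 of the 13 peaks had the smallest width of that list, 62 bp. Without the peaks of the smallest width of each list, an alternative chosen after seeing the data, the counts were 8 in E13 intestine and 11 in E13 stomach, so the order of these libraries turned. The same alternative left 9 regions in KO, 5 each in hindstomach, forestomach and colon, and 1 in E16 intestine. Lists thinned at random to equal length, in a single draw, left 0 of the 5 colon regions. Of the 30 regions 19 were seen in 1 library, and 8 of these in E13 intestine.

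The Trp63 region held by all 7 libraries, chr16:25584759-25585149, lay 98.6 kb below the gene body, close to the distance limit. Its peaks were 383 bp wide in forestomach, 244 in E13 stomach, 185 in KO, 182 in hindstomach, 166 in E13 intestine, 151 in colon and 87 in E16 intestine. The neighbouring regions at 99.1 kb (E13 stomach, forestomach and KO) and 98.4 kb (E13 stomach and KO) had no intestinal peak. These are the members just inside the limit. Just outside it, up to 110 kb away, lay 3 regions: those of colon at 109.6 kb and of E16 intestine at 102.3 kb from Trp63, and 1 of forestomach and colon at 101.4 kb from Pitx1.

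Inside the Trp63 body the region found most often was chr16:25780015-25780468, with peaks of 411 bp in E13 stomach, 318 in E13 intestine, 205 in KO, 117 in forestomach, 92 in colon and 89 in hindstomach and none in E16 intestine. The longest region, chr16:25774687-25775226, was a single peak of 539 bp in E13 stomach over peaks of 189 and 71 bp in KO. Another long one, chr16:25849730-25850227, had 413 bp in KO, 282 in E13 stomach, 169 in E13 intestine and 137 in hindstomach. These 3 regions were wide in the E13 libraries or KO and narrow or absent in forestomach. Forestomach and hindstomach alone held chr16:25723143-25723434, with peaks of 262 and 258 bp, and E16 intestine and colon alone held chr16:25672009-25672127, with 104 and 118 bp. Peaks seen in a single library reached 335 bp in KO, at chr16:25802936-25803271, and 341 bp in E13 intestine, at chr16:25728101-25728442.

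**Figure D2:**
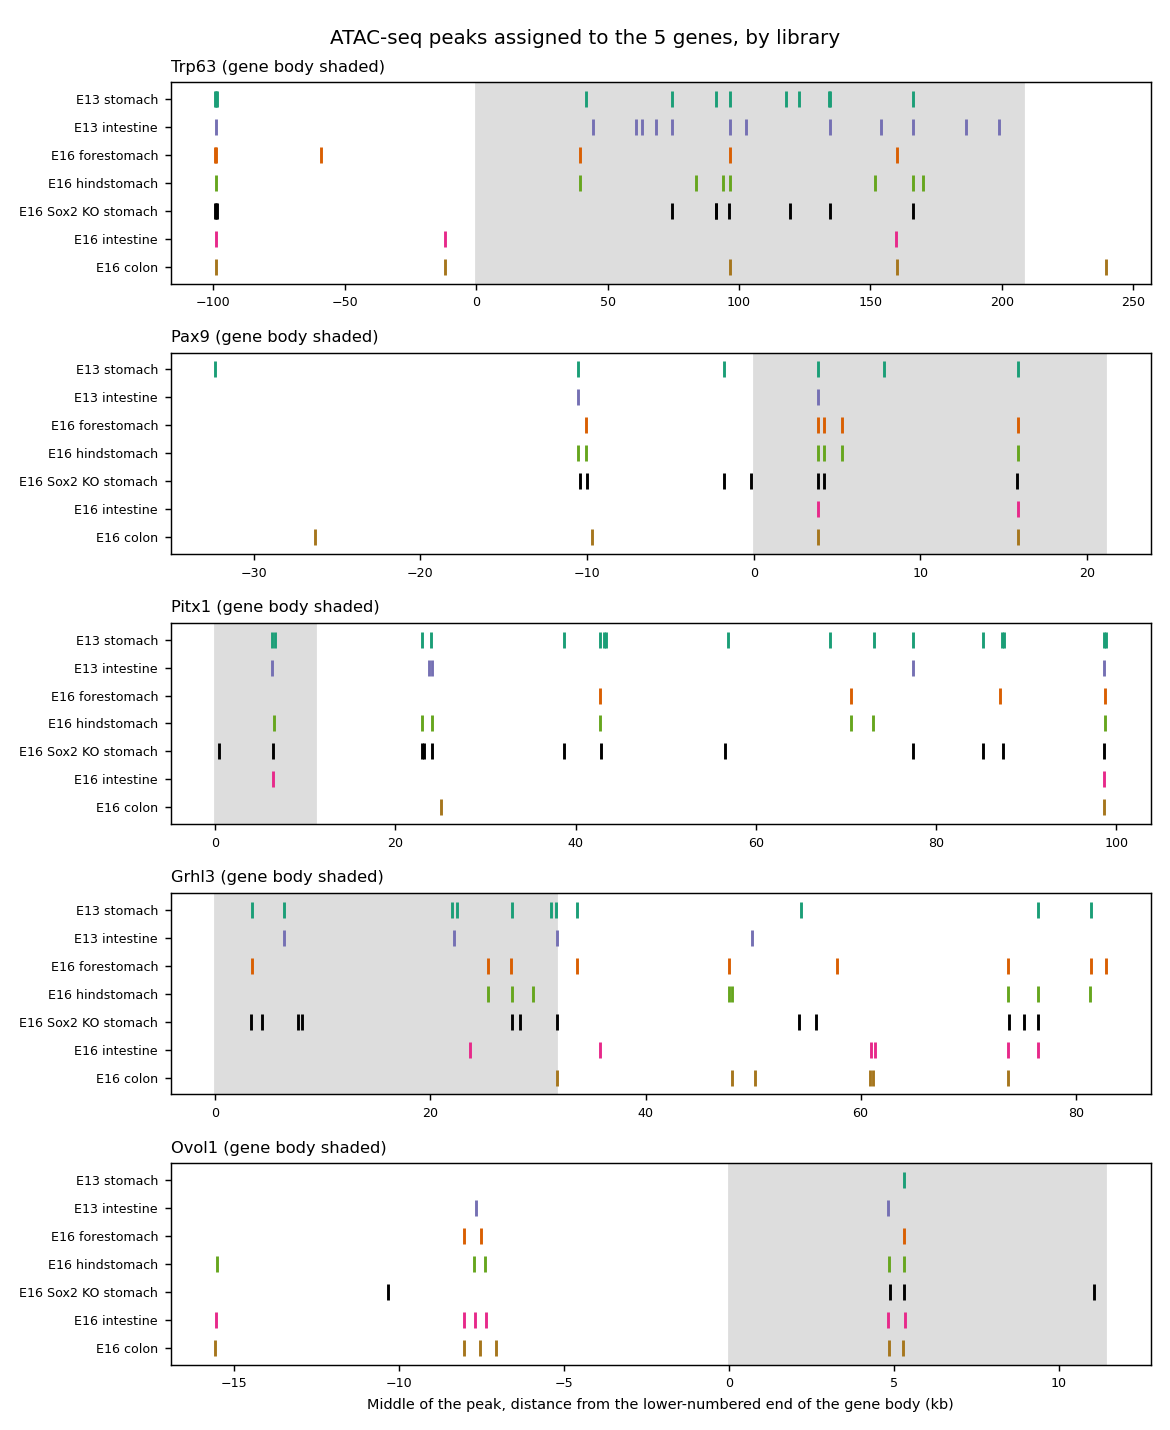
Each tick is the middle of a peak assigned to the gene, by library (rows), at its distance in kb from the lower-numbered end of the gene body, which is shaded. The 24 regions inside the Trp63 body are spread along it, and 19 of the 22 Pitx1 regions lie outside that gene, above it.

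Pax9 is a gene of 21.1 kb at chr12:56691693-56712824 with 12 regions, 5 of them inside the body. KO stomach had a peak in 7, E13 stomach and hindstomach in 6 each, forestomach in 5, colon in 4, and E13 and E16 intestine in 2 each. The stomach libraries were all above the intestinal ones, by at least 1 region. In percent this ran from 58.3% (32.0 to 80.7) in KO to 16.7% (4.70 to 44.8) in E13 and in E16 intestine. Besides the region over the promoter shown above, chr12:56707402-56707648 had peaks in all but E13 intestine, of 246 bp in forestomach, 227 in colon, 218 in hindstomach, 202 in E16 intestine, 84 in E13 stomach and 71 in KO. There the E13 stomach and KO peaks were the narrow ones, and the KO peak had the smallest width of its list.

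Of the Pax9 regions 4 had peaks in at least 2 stomach libraries and in no intestinal one. Forestomach, hindstomach and KO shared chr12:56681515-56681793 (278, 267 and 104 bp) and chr12:56695825-56696010 (185, 103 and 140 bp). Forestomach and hindstomach shared chr12:56696840-56697086 (246 and 177 bp), and KO and E13 stomach shared chr12:56689886-56689966 (80 and 77 bp). The first 3 were thus absent at E13, and 2 of them had a peak in KO stomach. E13 stomach, E13 intestine, hindstomach and KO held chr12:56681086-56681395, with 184, 70, 92 and 287 bp. Intestinal libraries alone held 2 regions, both colon peaks outside the gene body, of 130 and 86 bp.

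Pitx1 is a gene of 11.1 kb at chr13:55825044-55836190, and 19 of its 22 regions lay above it, up to 87.4 kb away. E13 stomach had a peak in 15 of the 22, KO stomach in 12, hindstomach in 7, E13 intestine in 5, forestomach in 4, and E16 intestine and colon in 2 each. E13 stomach held 68.2% (47.3 to 83.6) and KO 54.5% (34.7 to 73.1), and both intervals lay above those libraries' shares of all regions, 28.2% and 31.8%. Among the 8 regions within 20 kb of the body the numbers were 5 in KO, 4 in E13 stomach, 3 each in E13 intestine and hindstomach, 1 each in E16 intestine and colon and 0 in forestomach.

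The region of Pitx1 that all 7 libraries held, chr13:55923601-55923977, was 87.4 kb above the body. Inside the body, chr13:55831212-55831629 had peaks of 277 bp in KO, 276 in E13 stomach, 224 in hindstomach, 163 in E16 intestine and 124 in E13 intestine, and none in forestomach or colon. The longest region, chr13:55867523-55868003 at 31.3 kb, was 480 bp in E13 stomach, 413 in forestomach, 316 in KO and 303 in hindstomach, and had no intestinal peak. All 4 stomach libraries held it, and it was the 1 Pitx1 region of that kind. E13 stomach and KO alone held 3 regions, at chr13:55863719-55863865 (146 and 98 bp), chr13:55910159-55910301 (142 and 76 bp) and chr13:55912260-55912640, where E13 stomach had peaks of 77 and 78 bp and KO a peak of 378 bp. Hindstomach shared chr13:55847894-55848087 with E13 stomach and KO (172, 77 and 138 bp), forestomach and hindstomach alone shared chr13:55895543-55895762 (219 and 172 bp), and hindstomach and E13 stomach alone chr13:55898054-55898163 (91 and 107 bp). The 2 regions of intestinal libraries only were seen in 1 library each, E13 intestine (86 bp) and colon (140 bp).

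Grhl3 is a gene of 31.7 kb at chr4:135541887-135573632 with 31 regions, 14 inside or across the end of its body and 17 above it. KO stomach had a peak in 12, E13 stomach in 11, forestomach in 9, hindstomach in 8, both E16 intestine and colon in 6 and E13 intestine in 4. All 4 stomach libraries were above the 3 intestinal ones in these counts, but not under every alternative. Lists thinned at random to equal length left 4 in hindstomach and 6 in E16 intestine. Of the 8 hindstomach peaks 2 had the smallest width of that list, and of the 6 each in E16 intestine and colon 0 did. Without such peaks hindstomach was thus no longer above E16 intestine and colon. KO held 38.7% (23.7 to 56.2) and E13 intestine 12.9% (5.13 to 28.9), and of all 17 regions seen in a single library KO held 6. Among the widest peaks at equal list length (81179 peaks each) KO had 6 regions in place of 12, and E13 stomach 9.

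Besides the start, the Grhl3 region chr4:135569164-135569575 inside the body had a peak of 348 bp in forestomach, 160 in KO, 137 in E13 stomach and 89 in hindstomach, and none in the intestinal libraries. Forestomach had the widest peak there and no peak at the annotated start. The longest region, chr4:135596072-135596493, was 387 bp in E13 stomach and 143 bp in KO and absent elsewhere. Forestomach and hindstomach alone shared chr4:135567135-135567317 (177 and 157 bp) and chr4:135589527-135589716 (187 and 177 bp). E16 intestine and colon alone shared chr4:135602645-135602896 (177 and 237 bp). The region chr4:135615524-135615694 had peaks in all 5 E16 libraries, KO included, from 99 to 151 bp, and in neither E13 library. Of the other stomach-only regions, chr4:135545123-135545505 was held by E13 stomach, forestomach and KO, chr4:135575356-135575636 by E13 stomach and forestomach, and chr4:135623082-135623335 by E13 stomach, forestomach and hindstomach.

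Ovol1, a gene of 11.4 kb at chr19:5549137-5560575, had 8 regions, 3 of them inside its body. Colon had a peak in 6, E16 intestine in 5, hindstomach and KO in 4 each, forestomach in 3, E13 intestine in 2 and E13 stomach in 1. The E16 intestinal libraries stood at the top and E13 stomach at the bottom, and no region was shared by stomach libraries alone. Colon held 75.0% (40.9 to 92.9), and E13 stomach 12.5% (2.24 to 47.1). The longest region of all 5 genes, chr19:5541291-5541883 at 7.25 kb below the body, had a peak of 553 bp in colon, 493 in forestomach and 224 in E13 intestine, paired peaks in hindstomach (243 and 235 bp) and E16 intestine (210 and 197 bp), and none in E13 stomach or KO. Inside the body, chr19:5554301-5554595 was open in all but E13 intestine, with 294 bp in KO at the widest, and chr19:5553890-5554131 in all but E13 stomach and forestomach. The KO peak at chr19:5560188-5560259 lies over the body of Ap5b1 too. Most of the window belongs to close neighbours: of 48 regions within 100 kb of Ovol1, 40 were nearer to another gene. Against those 48 the counts were 30 in forestomach, 28 in hindstomach, 27 in KO, 23 in E16 intestine, 21 in E13 stomach, 20 in colon and 17 in E13 intestine, so that colon was no longer the highest.

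**Figure D3:**
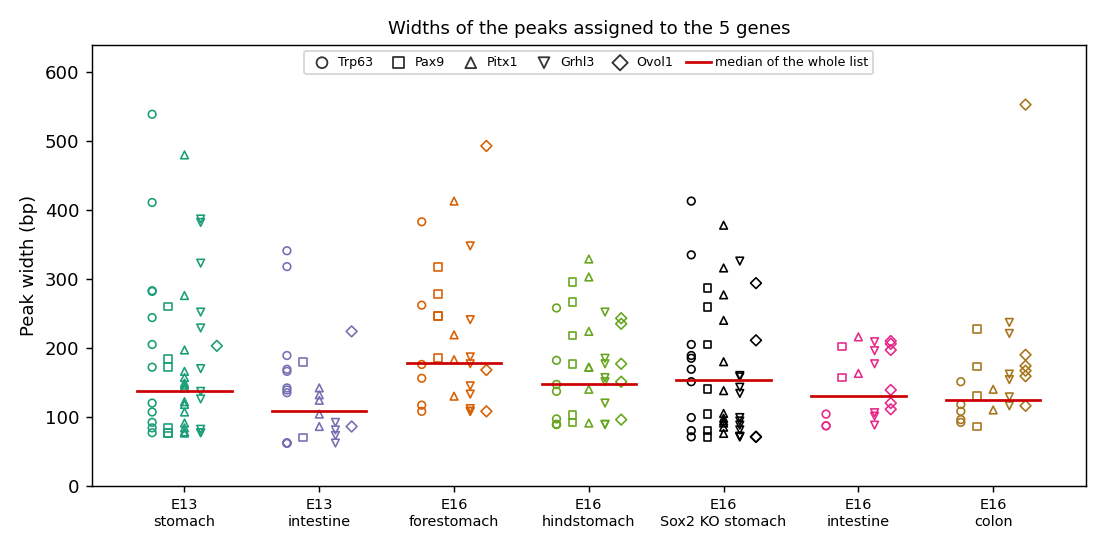
Widths in bp of the peaks assigned to the 5 genes, by library (horizontal axis) and gene (symbols), with the median width of each whole list as a red line. The widest are 553 bp (Ovol1, colon), 539 bp (Trp63, E13 stomach), 493 bp (Ovol1, forestomach) and 480 bp (Pitx1, E13 stomach).

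Peak widths, shown in the plot of widths by library and gene, are the other measure in the lists. The median width over the 5 genes was 183 bp in forestomach, against 178 for its whole list, 164.5 against 147 in hindstomach and 146 against 138 in E13 stomach. It was 157 against 130 bp in E16 intestine, 151 against 124 in colon, 114 against 108 in E13 intestine and 138 against 153 in KO. KO was the library in which the median at these genes was below that of its list. Of the KO peaks at the 5 genes 13.3% had the smallest width of that list, against 10.4% of all its peaks, and of the E13 intestine peaks 23.1% against 19.4%.

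Regions of the stomach and not of the intestine were more frequent at the 5 genes than over the genome. Those with peaks in at least 2 stomach libraries and in no intestinal one numbered 22 (21.4%; 14.5 to 30.2), against 10.2% of all regions, with 7 each at Pitx1 and Grhl3, 4 each at Trp63 and Pax9 and 0 at Ovol1. Those of intestinal libraries only, where 1 library was enough, numbered 22 (21.4%), against 34.6% of all regions. By gene, 10 lay at Trp63, 7 at Grhl3, 2 each at Pax9 and Pitx1 and 1 at Ovol1. The 2 classes are not alike, since the stomach class leaves out regions seen in 1 library. With 1 stomach library being enough, regions of stomach libraries only numbered 57, a count with no share over all regions beside it. E13 stomach and KO stomach alone shared 7 regions (6.80%; 3.33 to 13.4), against 2.84% of all regions, with 3 at Pitx1, 2 at Trp63, 1 each at Pax9 and Grhl3 and 0 at Ovol1. Forestomach and hindstomach alone shared 5 (4.85%; 2.09 to 10.9), against 1.99% of all regions, with 2 at Grhl3, 1 each at Trp63, Pax9 and Pitx1 and 0 at Ovol1.

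The design implies 11 pairs of libraries, and several pairs share a library, so their values do not stand alone. For each, the regions held by 1 library of the pair and not the other were counted, and the share that lay in the library named first was set beside that share over all merged regions. At E13, 31 regions were in stomach only and 12 in intestine only, or 72.1% (57.3 to 83.3), against 60.1% over all regions. Pitx1 had 11 and 1, Grhl3 8 and 1, Pax9 4 and 0, Trp63 7 and 8, and Ovol1 1 and 2. More regions in stomach only than in intestine only were thus found at Pitx1, Grhl3 and Pax9, while the 60.1% over all regions lay inside the interval. Without Pitx1 the share at the members was 64.5%, and within 20 kb of the gene bodies 57.1%, which is below that of all regions.

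At E16, forestomach had 18 regions that E16 intestine lacked and lacked 9, or 66.7% (47.8 to 81.4), against 45.2%. Hindstomach against E16 intestine gave 22 and 7, or 75.9% (57.9 to 87.8), against 57.0%. Pax9 had 3 and 0 regions in the first of these pairs and 4 and 0 in the second, Trp63 4 and 1, then 7 and 2, and Ovol1 0 and 2, then 0 and 1. E16 intestine against colon gave 5 and 10, or 33.3% (15.2 to 58.3), against 32.8%, and the 5 genes lay close to the background there.

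Forestomach and hindstomach, the squamous and the glandular part, shared 18 regions at the 5 genes. Their epithelia were isolated differently, and each also differed in isolation from E16 intestine. In these pairs tissue cannot be told apart from the isolation. Forestomach alone held 9 and hindstomach alone 15, or 37.5% (21.2 to 57.3), against 34.0% over all regions. Grhl3 had 4 and 3, Trp63 3 and 5, Pitx1 1 and 4, Pax9 0 and 1 and Ovol1 1 and 2. The hindstomach list is the longer, and the direction turned at equal list length, to 55.6% with the widest peaks and 60.9% with lists thinned at random. The share over all merged regions was not recomputed at equal list length, so no background stands beside these values. At Trp63 forestomach had 6 regions and hindstomach 8, and this order turned at equal list length too, to 6 and 4 with the widest peaks and 6 and 5 with thinning.

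**Figure D4:**
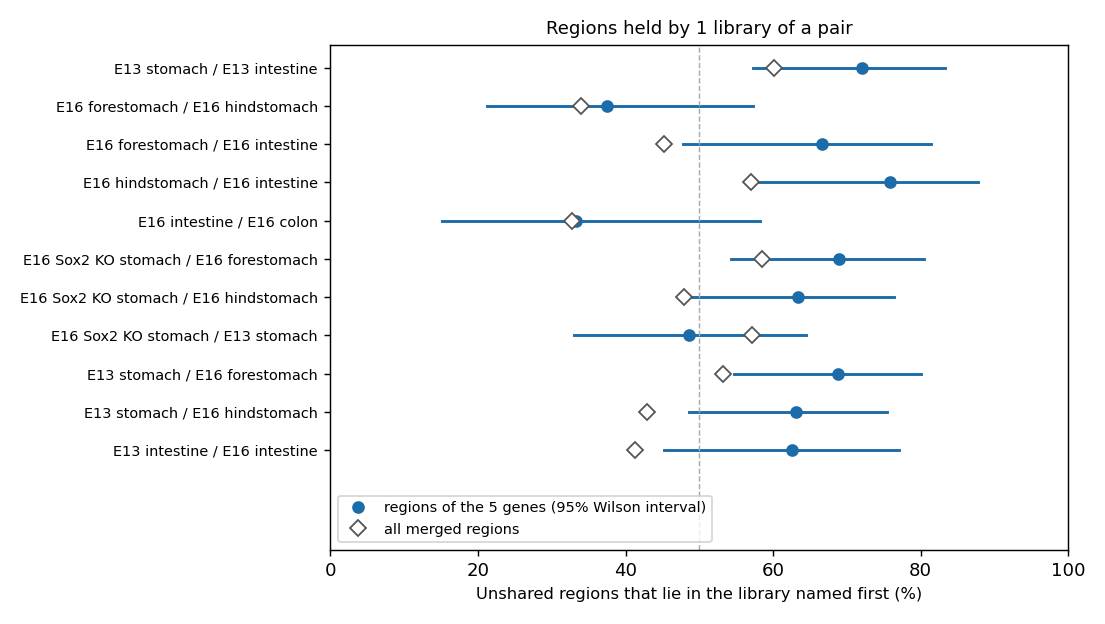
For each pair of libraries (vertical axis), the filled point is the percent of the regions held by 1 of them that lie in the library named first, over the 5 genes, with its 95% Wilson interval; the open diamond is that percent over all merged regions, and the dashed line marks 50%. E13 stomach against E13 intestine stands at 72.1% and forestomach against hindstomach at 37.5%.

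In each of the 3 wild-type pairs across time, the older library held fewer regions at the 5 genes. E13 stomach had 33 regions that forestomach lacked and lacked 15 of its regions, or 68.8% (54.7 to 80.1), against 53.2% over all regions. Against hindstomach it had 29 and 17, or 63.0% (48.6 to 75.5), against 42.9%, where the whole lists lean to the older library. E13 intestine had 20 regions that E16 intestine lacked and lacked 12, or 62.5% (45.3 to 77.1), against 41.3%. Pitx1 gave 13 and 2 against forestomach, 9 and 1 against hindstomach and 3 and 0 in the intestine. Trp63 gave 9 and 3, 9 and 5, and 12 and 2. Ovol1 ran the other way, with 0 and 2, 0 and 3, and 0 and 3, and Grhl3 did so in the intestine, with 4 and 6. E13 and E16 cells were isolated differently, so time cannot be told apart from the isolation.

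The KO stomach had 31 regions at the 5 genes that forestomach lacked and lacked 14, or 68.9% (54.3 to 80.5), against 58.5% over all regions. Against hindstomach the numbers were 26 and 15, or 63.4% (48.1 to 76.4), against 47.9%. Pitx1 gave 10 and 2, then 7 and 2, Grhl3 9 and 6, then 9 and 5, Trp63 6 and 3, then 6 and 5, Pax9 3 and 1, then 2 and 1, and Ovol1 3 and 2, then 2 and 2. Pitx1 had more KO regions than forestomach and hindstomach regions under every alternative that kept the KO list. Each of the other 4 genes had fewer KO regions than forestomach or hindstomach regions under at least 1 of them, such as 6 in KO and 7 in hindstomach at Trp63 within 20 kb, 8 and 10 at Pax9 by the nearest gene end, and, with the widest peaks, 6 in KO and 7 in forestomach at Grhl3 and 2 and 3 at Ovol1. Against E13 stomach the KO had 17 and 18, or 48.6% (33.0 to 64.4), against 57.1%, a split that crossed 50% under 5 of its alternatives.

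Of the 44 KO regions 27 were also held by E13 stomach (61.4%; 46.6 to 74.3), against 53.7% of all KO regions, 18 by hindstomach (40.9%; 27.7 to 55.6) against 48.0%, and 13 by forestomach (29.5%; 18.2 to 44.2) against 37.9%. The KO thus shared more of these regions with the stomach 3 days younger than with either E16 stomach library, as it did over all regions. Counted the other way, KO held 27 of the 45 E13 stomach regions, close to the 60.7% over all regions. It held 54.5% of the hindstomach regions, against 45.9% over all regions, and 48.1% of the forestomach regions, against 46.2%. The lean to E13 stomach relative to all regions was thus seen only with KO regions as the base. At Trp63, 8 of 9 KO regions were in E13 stomach (88.9%; 56.5 to 98.0), 3 in hindstomach and 3 in forestomach. At Pitx1 the numbers were 9, 5 and 2 of 12, at Pax9 4, 5 and 4 of 7, at Grhl3 5, 3 and 3 of 12 and at Ovol1 1, 2 and 1 of 4. Pax9 and Ovol1 thus did not have their largest overlap with E13 stomach. Of 24 KO regions absent from both forestomach and hindstomach, 11 had an E13 stomach peak (45.8%; 27.9 to 64.9, against 32.8% of all such regions). In the same 24, 4 had an E13 intestine peak (16.7%, against 19.5%), and 1, at Grhl3, had a peak in E16 intestine or colon (4.17%, against 8.23%). Of the 18 regions that forestomach and hindstomach shared, KO had 11 (61.1%; 38.6 to 79.7), against 59.0%, with 4 of 5 at Pax9, 2 of 3 each at Trp63 and Pitx1, 2 of 5 at Grhl3 and 1 of 2 at Ovol1. Mesenchymal markers had 58 regions in KO, against 42 in E13 stomach, 41 in hindstomach and 35 in forestomach, and their part in the KO counts was not tested.

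Of the genes around the members, 9 are relatives in the same families. They had 83 regions with a KO peak, 56 in hindstomach, 54 in E13 stomach, 48 in E13 intestine, 55 in colon, 45 in forestomach and 44 in E16 intestine. KO had more than forestomach at 7 of the 9 and fewer at 0, while it had more at 47.6% of all 20525 genes and fewer at 22.3%. The rest of all genes had equal counts, and genes with few or no regions are among all genes. No reference of genes with a like number of regions was made, here or for the lists below. Grhl2, which keeps epithelial junctions, had 27 KO, 19 hindstomach and 17 forestomach regions, Trp73, the p73 gene, had 11, 4 and 5, and Ovol2 had 7, 4 and 1. At E13 the relatives had more stomach regions at 4 genes and fewer at 1, with 19 and 15 at Grhl2, 9 and 7 at Pax1, and 6 and 8 at Trp73.

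The 24 squamous genes, among them keratins, desmosome and hemidesmosome genes, had more regions in E13 stomach than in E13 intestine at 17 genes and fewer at 2, against 43.4% and 19.9% of all genes. Fgfr2, a growth factor receptor, had 14 and 7, Klf5 12 and 8 and Itga6, an integrin of the basal layer, 14 and 11. Between forestomach and hindstomach, 4 had more in forestomach, 10 more in hindstomach and 10 the same, against 14.1% and 49.6% of all genes that had more in each. KO had more regions than forestomach at 13 of the 24 and fewer at 6, where all genes split 47.6% and 22.3%, with 20 and 13 at Fgfr2, 10 and 4 at Perp and 8 and 3 at Lamb3. The 12 foregut patterning genes had more KO than forestomach regions at 12 of 12, where all genes split 47.6% and 22.3%. These 12 genes had 295 regions, and whether genes with as many regions split alike was not tested. They had more KO than hindstomach regions at 10 and fewer at 1, where all genes split 33.8% and 35.4%. Foxa2, a pioneer factor of endoderm, had 26 KO, 17 hindstomach and 13 forestomach regions, and Barx1, a stomach mesenchyme factor, 12, 8 and 6. The 8 intestinal transcription factor genes had more E16 intestine than forestomach regions at 8 of 8, where all genes split 37.1% and 29.1%. They had more KO than forestomach regions at 8 of 8 as well, where all genes split 47.6% and 22.3%. The same held for wild-type hindstomach, which had more regions than forestomach at 8 of 8, where all genes split 49.6% and 14.1%. Between KO and hindstomach, KO had more at 4, fewer at 2 and the same number at 2.

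Likeness to each member was measured over the 7 libraries as Pearson's r of log2((regions + 0.5) / all regions of the library), among 7800 or 7801 genes with at least 10 regions. These points share library and list length, and r is a description. Closest to Trp63 were Usp51 (r = 0.983), Rabgap1l (0.977) and Commd9 (0.958), and to Pax9 Fam102a (0.986), Rap1gap (0.984) and Krt80 (0.979), an epithelial keratin. Closest to Pitx1 were Ttll6 (0.996), E2f2 (0.976) and Dennd1a (0.976), to Grhl3 Bpgm (0.973), Dusp7 (0.971) and Anks6 (0.971), and to Ovol1 Slc30a1 (0.988), Ubr3 (0.982) and Zfp277 (0.972). Values above 0.9 were common, with 50 genes for Trp63, 113 for Pax9, 118 for Pitx1, 91 for Grhl3 and 47 for Ovol1.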

How the data were processed

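ATAC-seq was measured in 7 mouse libraries, 1 per group. Per the submitters' processing notes, cutadapt, Bowtie2, MACS2 and GRCm38/mm10 were used, and the sources used here give no versions, thresholds or pooling. The deposited lists give chromosome, start and end of each peak (unit: other), with no height, score or count, so depth is unknown and no normalization applies. Positions are printed as deposited, and whether they count from 0 or 1 is not stated.

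Overlapping peaks (1 bp or more) on the 19 autosomes and X were merged, and 264636 of 326695 regions had a protein-coding gene body of the RefSeq table within 100 kb. A region overlapping several bodies went to the gene whose middle was nearest. That table gives no strand, so regions are described as inside, above or below a body. Members and lists were chosen with earlier results of these data known. Named are the 5 members, the 3 genes most like each, per list at most 3 genes with the largest difference of at least 2 regions in a pair, and for each member the start region where known, regions of all 7, of stomach only or of intestinal libraries only, and the longest; the text prints a part of them, and other regions were singled out after their peaks were seen. Motifs were searched in the promoter table only. The merging and counting were tested on simulated data. Alternatives changed the overlap, gene assignment, peaks used and libraries merged. Random thinning was a single draw from each list, so its own spread is unknown. Python 3.11.15 was used with numpy 2.4.6, pandas 2.3.3, scipy 1.17.1 and matplotlib 3.10.9.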

Additional observations from a re-analysis of the deposited data

Results flagged for a closer look

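At Trp63, stomach and intestine changed places between the ages. E13 stomach minus E13 intestine was -1 region, while hindstomach minus E16 intestine was 5. The difference between the ages was not tested, and without peaks of the smallest width E13 stomach had 11 regions and E13 intestine 8.

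At Grhl3, the stomach and the intestine moved in opposite directions with age. Hindstomach minus E13 stomach was -3 regions, and E16 minus E13 intestine was 2. That difference was not tested either, since each value rests on 1 library per group.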

How the results depend on the processing

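With 1 library per group no replicate could be left out. No paired analysis was possible because each group holds a single library and no test was made. Of 129 recomputed pair shares 119 kept their direction within counting error. The reversed ones were forestomach against hindstomach (37.5%), at 55.6% with the widest peaks and 60.9% with random thinning to 81179 peaks. E16 intestine against colon (33.3%) came to 56.3% with thinning. KO against E13 stomach (48.6%) came to 54.2% within 20 kb, 52.6% with thinning, 51.7% without smallest-width peaks, 52.4% over all regions within 100 kb of the genes and 53.8% without Pitx1, the last 3 chosen after seeing the data. E13 stomach against E13 intestine moved to 57.1% within 20 kb, and E13 stomach against forestomach to 54.6% over all regions within 100 kb. Shares over all merged regions were not recomputed for the alternatives that changed the peaks or their merging.

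Counts were called moved where they changed by more than a fixed fold limit, which is not a counting error. Of the 83 recomputed counts per library 14 moved. Within 20 kb E13 stomach had 27, forestomach 16 and KO 29. The widest peaks gave 29 in KO, bodies extended by 10 kb gave 29 in KO and 14 in colon, and thinning gave 13 in colon. Over all regions within 100 kb KO had 93, E13 stomach 90, hindstomach 84, forestomach 81, colon 60, E13 intestine 54 and E16 intestine 51. That is a larger set of regions, with 37 at Trp63 and the other totals given below. Shares of it were not set beside those of all merged regions. Gene totals moved to 8 for Pitx1 and 20 for Grhl3 within 20 kb, to 7 and 18 with extended bodies, to 35 for Pax9 by the nearest gene end, to 5 for Ovol1 with peaks across short gaps joined, and to 45, 38, 59 and 48 for Pax9, Pitx1, Grhl3 and Ovol1 over all regions within 100 kb. Of 380 counts of 1 gene in 1 library 298 stayed within the same fold limit. Unknown depth limits every absent peak, and the cause of these moves was not tested.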
